A study of Mus musculus with 35 samples.

Results

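The mouse mitochondrial genome carries 37 genes, which the tables name with symbols that start with mt-. They comprise 13 mRNAs, 2 rRNAs and 22 tRNAs, and all 37 were found by that symbol among the 48709 genes of the deposited tables. Their transcripts were followed in OT-I CTLs, which are effector CD8+ T cells from spleens of mice whose T cells carry a transgenic T-cell receptor specific for an ovalbumin peptide. The cells had been primed through CD3 and CD28 with antibodies, then expanded with IL-2, and 5 biological replicates, numbered 1 to 5, were taken in each of 7 groups. One group (0 h) preceded the acid cultures. The other 6 spent 24 h in low-glucose medium whose pH was 7.4, 7 or 6.6, and at every pH there was a group with murine IL-2 at 200 IU/mL and a group lacking it. The medium was acidified with HCl. Dead cells were removed on Ficoll before RNA extraction, so the libraries describe surviving cells of a single receptor specificity in vitro.

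Mitochondrial DNA is read by its own RNA polymerase, POLRMT, with the factors TFAM and TFB2M. Each strand is transcribed as a long precursor, which is cut at the tRNAs that sit between most genes into mRNAs, rRNAs and tRNAs. The heavy strand gives the rRNAs and most mRNAs, whereas the light strand gives the mRNA of ND6 and a minority of the tRNAs. The mRNAs encode core subunits of respiratory complexes I (the mt-Nd genes), III (mt-Cytb) and IV (mt-Co1, mt-Co2 and mt-Co3) and of the ATP synthase (mt-Atp6 and mt-Atp8), and all other subunits are made from nuclear genes. In mammals, LRPPRC and SLIRP bind and stabilise the mitochondrial mRNAs, most of which end in a short poly(A) tail.

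The libraries were made by poly(A) selection, so a lower count and a shorter or missing tail cannot be told apart. As these were bulk libraries, fewer cells of a type and less RNA per cell cannot be told apart either. All values are relative to the other RNAs of the same library. The total count on genes was 16721319 to 34033340 per library, and the 13 mitochondrial mRNAs took 0.701% to 2.53% of it. Reads that aligned to more than 1 place stayed uncounted and made up 32.8% to 48.3% of the reads listed, with group medians of 34.02% at pH 7.4 without IL-2, 37.9% at pH 6.6 without IL-2, and 37.7% and 37.3% in the matching groups with IL-2. The summed level of 8 CD8 T cell markers was at least 3143 CPM (counts scaled to a common library size of 1e+06 after correction between libraries) in every library, and Cd8a was at least 673.8 CPM. Most of the difference in that sum followed Gzmb, the cytotoxic protease granzyme B, whose group medians were 7607 CPM (pH 7.4) and 975.5 CPM (pH 6.6) with IL-2, against 123 and 81.0 CPM without. Of the 5 B cell markers, the defining genes Ms4a1 and Pax5 were at 0 in all 35 libraries, and the list summed to 1.02 to 6.10 CPM. The 6 erythroid markers summed to at most 0.274 CPM. The 7 myeloid markers summed to 2.35 to 25.6 CPM, nearly all of it Itgax, and the group medians of Lyz2 and S100a8 were 0 in all 7 groups. The 3 CD4 T cell markers summed to 17.4 to 63.7 CPM, with Cd4 itself at no more than 2.48 CPM. Neat1, a nuclear RNA, moved with the groups, with medians of 709.6 CPM (pH 7.4) and 214 CPM (pH 6.6) without IL-2, against 112 and 215 CPM with it. Malat1, another nuclear RNA, moved differently, with medians of 498 and 512 CPM without IL-2 and 349 and 557 CPM with it. The part of Gzmb-high cells, of multiply aligned reads or of nuclear RNA in the results was not tested.

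Only 7 of the 13 mRNAs held reads in number. Over all 35 libraries together, mt-Co1, which encodes the catalytic subunit of cytochrome c oxidase, received 7252660 counts, mt-Cytb 1644381, mt-Nd1 1559209, mt-Nd5 1363824, mt-Nd2 748704, mt-Nd4 628251 and mt-Nd6 8058. The mRNAs of mt-Co3, mt-Atp8 and mt-Nd4l received 0 counts, mt-Co2 received 1, mt-Atp6 received 2 and mt-Nd3 received 29. The uncounted genes lie next to each other on the mitochondrial genome, between mt-Co1 and mt-Nd4, and so the blank was a stretch of the genome rather than a set of complexes. In the GENCODE M21 transcripts (GRCm38), 97.99% to 100% of all 50-base windows of mt-Co2, mt-Atp6, mt-Co3, mt-Nd3 and mt-Nd4l were also found in an annotated nuclear pseudogene. The nuclear copies Gm28661, Gm10925, Gm28437, Gm28438 and Gm10222 lie in the same order on the minus strand of chromosome 1, between positions 24612407 and 24615565, and also held 0 or 1 counts over all libraries. In the 204 bases of mt-Atp8, no shared window was found, but its place on the mitochondrial genome falls between the parts copied in Gm28661 and Gm10925, where no nuclear gene is annotated. A read that lies wholly in a shared stretch has more than 1 place to align, and reads of that kind were not counted. For mt-Atp8 no genome sequence was used here to look for an unannotated copy, and why it received 0 counts was not tested. The levels of these 6 mRNAs are therefore not known from these tables, and a count of 0 for them is not an absence of the RNA.

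The first 60 bases of mt-Co2 are shown beside the nuclear copy because they make this point directly. The mitochondrial sequence is chrM:7013-7072 on the plus strand, and the copy in Gm28661 is chr1:24615506-24615565 on the minus strand, both in GRCm38. All 681 aligned bases of the copy were identical to mt-Co2, and the 60 bases shown differ at 0 positions.
mt-Co2: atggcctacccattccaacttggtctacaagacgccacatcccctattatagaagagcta
Gm28661: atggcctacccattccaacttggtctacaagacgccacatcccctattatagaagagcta

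For mt-Co1, 51.1% of the 50-base windows were shared, and for mt-Nd4 62.2%. With windows of 100 bases the shares were 30.8% and 60.8%, and the read length, which decides between them, is not given in the sources used here. Reads within shared windows would be left out, and the levels of these mRNAs may be understated relative to mt-Nd1 and mt-Cytb, which had 0 shared windows. The start of mt-Co1 (chrM:5328-5387) and its chromosome 2 copy Gm13340 (chr2:22589588-22589647, minus strand) differ at 2 of 60 bases, given in capitals, and over the whole length 1508 of 1545 bases were identical.
mt-Co1: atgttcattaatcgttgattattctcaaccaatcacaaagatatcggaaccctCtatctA
Gm13340: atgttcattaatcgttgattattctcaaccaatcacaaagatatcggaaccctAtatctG

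Farther along, mt-Co1 (chrM:6481-6540) has a second copy, Gm29216 (chr1:24616038-24616097, minus strand), that is identical over the 60 bases shown.
mt-Co1: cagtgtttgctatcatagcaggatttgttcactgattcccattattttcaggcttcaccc
Gm29216: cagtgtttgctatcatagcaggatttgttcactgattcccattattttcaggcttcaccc

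**Figure D1:**
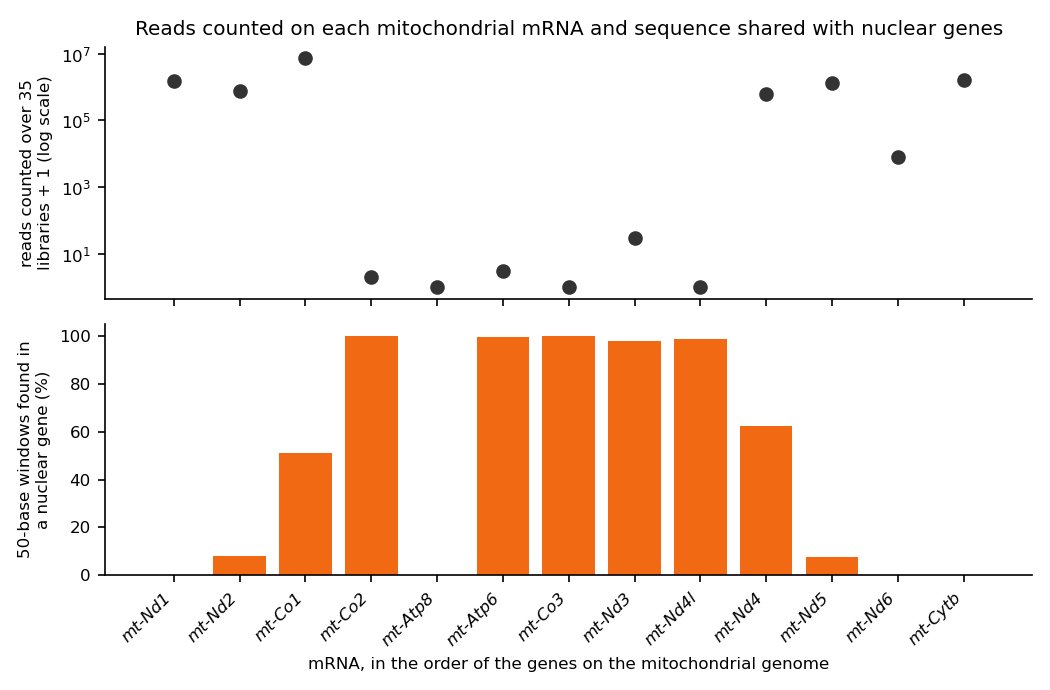
For each of the 13 mitochondrial mRNAs, in genome order, the upper panel gives the reads counted over all 35 libraries plus 1 on a log scale and the lower panel the percent of 50-base windows also found in a nuclear gene. The run from mt-Co2 to mt-Nd4l, where all shared percentages but that of mt-Atp8 are 97.99% or more, received at most 29 counts per gene.

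The counted mRNAs differed widely in level. At pH 7.4 with IL-2, the level per kilobase of gene was 4911 ± 878 CPM per kb (SD, n = 5) for mt-Co1, 3267 ± 859 for mt-Nd1, 2333 ± 390 for mt-Cytb, 1330 ± 338 for mt-Nd2, 941 ± 286 for mt-Nd5, 585 ± 123 for mt-Nd4 and 31.9 ± 6.67 for mt-Nd6. The ranges of mean ± SD overlapped between neighbours in this order from mt-Co1 to mt-Cytb and from mt-Nd2 to mt-Nd4, and did not overlap between mt-Cytb and mt-Nd2 or between mt-Nd4 and mt-Nd6. The mRNA of mt-Nd6, the light-strand mRNA, was far below the rest, and in human cells it is known to lack the poly(A) tail by which these libraries were selected.

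With IL-2, 6 of the 7 counted mRNAs were lower at pH 6.6 than in the pH 7.4 cultures, and mt-Co1 did not change past the threshold (adjusted p under 0.05). The lowest were mt-Nd1 and mt-Nd2, the first mRNAs after the rRNAs on the heavy strand, and mt-Nd6 on the light strand. For mt-Nd1, a core membrane subunit of complex I, replicates 1 to 5 had 4539, 3043, 2623, 2944 and 2483 CPM at pH 7.4 and 681, 515, 589.7, 603 and 577 CPM at pH 6.6. Every library at pH 6.6 lay below every library at pH 7.4, and replicate 1 was the highest of its group at both pH values. The change was -2.38 ± 0.15 on the log2 scale (SE; edgeR's quasi-likelihood test with Benjamini-Hochberg adjustment, adjusted p = 5.35e-16), a level 5.19-fold lower. For mt-Nd2, another membrane subunit of complex I, the values were 1957, 1429.6, 1106, 1303 and 1105 CPM at pH 7.4 and 356, 277, 279.7, 286 and 282 CPM at pH 6.6, with a change of -2.20 ± 0.15 (edgeR, adjusted p = 4.69e-15). The groups did not overlap. For mt-Cytb, the central subunit of complex III, they were 3425, 2636, 2484, 2553 and 2249.8 CPM at pH 7.4 and 742, 713, 791.5, 873 and 779.8 CPM at pH 6.6, again without overlap, with a change of -1.76 ± 0.12 (edgeR, adjusted p = 7.77e-15).

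The falls of the other complex I mRNAs of the heavy strand were smaller with IL-2. The mRNA of mt-Nd4 changed by -1.04 ± 0.12 (edgeR, adjusted p = 1.35e-09) and that of mt-Nd5 by -1.02 ± 0.16 (edgeR, adjusted p = 5.7e-07). Both encode proton-pumping subunits of complex I, and neither showed overlap between the groups. For mt-Nd5 the libraries held 2610.4, 1721, 1347, 1539.8 and 1365 CPM at pH 7.4 and 853, 792.5, 847.5, 864.5 and 793 CPM at pH 6.6. The light-strand mRNA mt-Nd6 had 20.5, 17.9, 13.2, 18.5 and 12.6 CPM at pH 7.4 and 3.99, 7.44, 2.85, 2.43 and 3.79 CPM at pH 6.6, a change of -2.05 ± 0.28 (edgeR, adjusted p = 7.43e-08). For mt-Co1 the libraries held 9961, 7285, 7117, 7040.2 and 6535 CPM at pH 7.4 and 6999, 7668, 9017, 6508 and 6088 CPM at pH 6.6. These groups overlapped, and the change was -0.06 ± 0.13 (edgeR, adjusted p = 0.705), with 3 of 5 pairs in that direction and a 95% interval of -0.31 to 0.20. Its sign turned under other scalings, with 0.004 under RLE size factors and 0.02 with library size alone. Among all 13819 genes tested in this comparison, 40.9% were lower and 35.4% higher, and the median log2 fold change was -0.07, so the 6 lower mRNAs stood against a background in which change was common. Summed over the 13 mRNAs, the share of counts was 2.27%, 1.59%, 1.46%, 1.54% and 1.36% at pH 7.4 and 1.04%, 1.01%, 1.15%, 0.969% and 0.896% at pH 6.6, and the sum changed by -0.76 ± 0.13 (edgeR, adjusted p = 2.91e-06). Without mt-Co1, a sum chosen after seeing the data, the change was -1.73 ± 0.13 (edgeR, adjusted p = 1.07e-13).

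**Figure D2:**
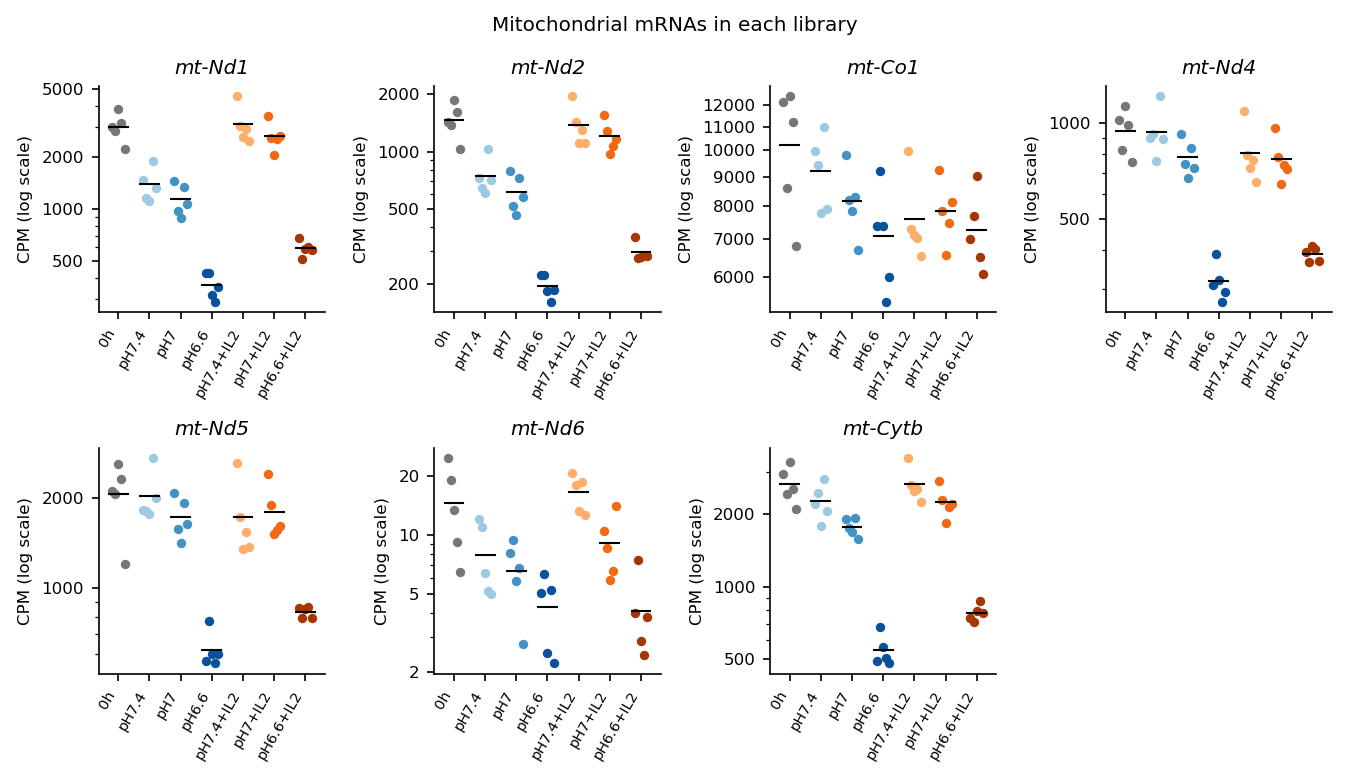
Each panel plots 1 mitochondrial mRNA in CPM on a log scale; points are the 5 libraries of each of the 7 groups and bars are group means. The pH 6.6 libraries lie below the pH 7.4 libraries in both IL-2 conditions for mt-Nd1, mt-Nd2, mt-Nd4, mt-Nd5 and mt-Cytb, whereas the mt-Co1 groups overlap.

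In the absence of IL-2, all 7 counted mRNAs were lower at pH 6.6 than in the pH 7.4 cultures, with mt-Cytb and not mt-Nd1 showing the lowest value. The libraries held 2199.6, 2452, 1781, 2805 and 2055 CPM of mt-Cytb at pH 7.4 and 492, 683, 562, 506 and 482 CPM at pH 6.6. The groups were far apart, and the change was -2.05 ± 0.12 (edgeR, adjusted p = 1.57e-15). For mt-Nd1 they held 1473, 1166, 1124, 1914 and 1319.6 CPM at pH 7.4 and 426, 423, 318, 289 and 352 CPM at pH 6.6, a change of -1.94 ± 0.14 (edgeR, adjusted p = 2.56e-13). The mRNAs of mt-Nd2 (-1.91 ± 0.15), mt-Nd5 (-1.70 ± 0.16) and mt-Nd4 (-1.56 ± 0.12) likewise did not overlap between the groups, each with the same sign in 5 of 5 pairs and an adjusted p of at most 6.56e-11 in edgeR. The values of mt-Nd6 were 12.02, 10.99, 6.39, 5.17 and 4.96 CPM at pH 7.4 and 5.05, 6.31, 2.499, 5.196 and 2.21 CPM at pH 6.6. These groups overlapped, and the change of -0.87 ± 0.28 (edgeR, adjusted p = 0.00679) had the same sign in 4 of 5 pairs. The smallest change was again that of mt-Co1, -0.38 ± 0.13 (edgeR, adjusted p = 0.00992), which did not pass the threshold without replicate 4 (-0.23, adjusted p = 0.157). Of all genes tested, 35.4% were lower and 31.6% higher. With library size alone in place of TMM scaling, the split of all called genes moved from 4367 higher and 4891 lower to 3212 and 6048. The summed mRNAs made up 1.85%, 1.72%, 1.47%, 2.16% and 1.58% of counts at pH 7.4 and 0.923%, 1.08%, 0.872%, 0.701% and 0.759% at pH 6.6, and changed by -0.86 ± 0.13 (edgeR, adjusted p = 5.18e-07), or by -1.84 ± 0.13 without mt-Co1.

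**Figure D3:**
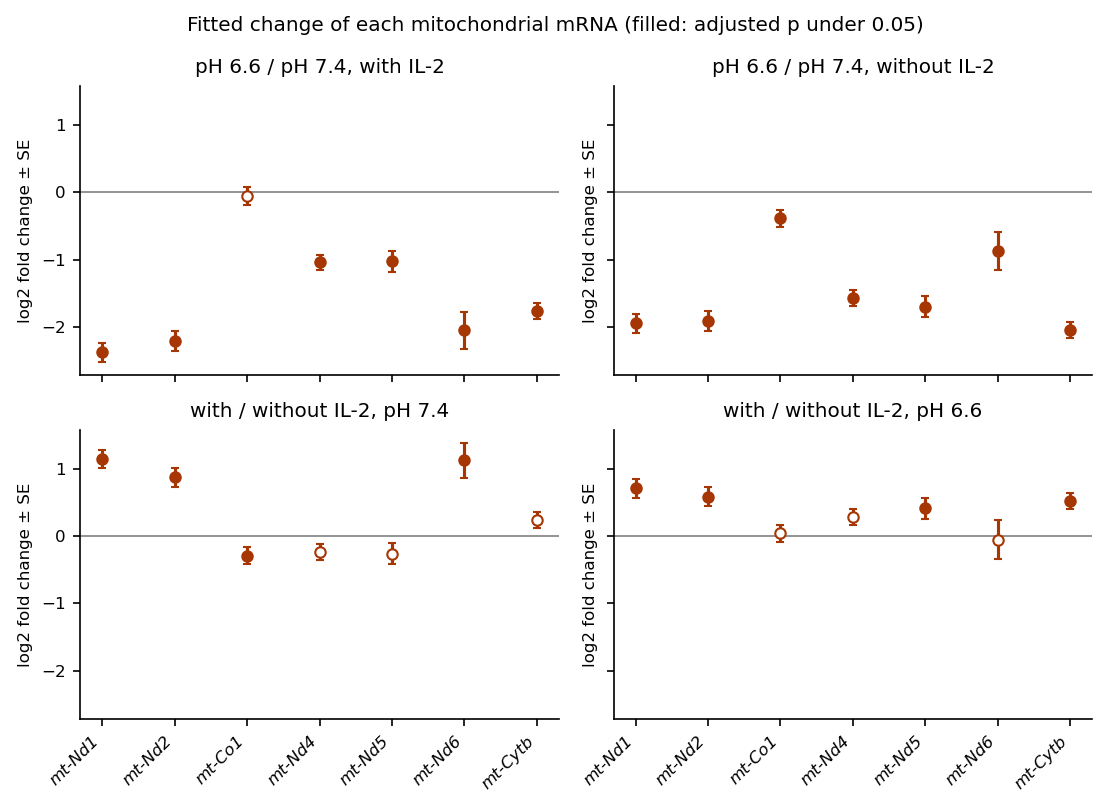
Fitted log2 fold change ± SE of each counted mitochondrial mRNA from pH 7.4 to pH 6.6 (upper panels) and between cultures with and without IL-2 (lower panels), 5 libraries per group; filled circles have an adjusted p under 0.05. In the upper panels mt-Co1 is nearest to 0, at -0.06 with IL-2 and -0.38 without, and in the lower panels mt-Nd1 is at 1.14 and 0.71.

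At pH 7 the changes were small. With IL-2, 1 of the 7 mRNAs passed the threshold against pH 7.4, and it was mt-Nd6, with 10.4, 8.53, 5.86, 6.49 and 13.9 CPM against 20.5, 17.9, 13.2, 18.5 and 12.6 CPM. The change was -0.83 ± 0.26 (edgeR, adjusted p = 0.0219) with 4 of 5 pairs lower and overlapping groups, and it did not pass without the replicate block (adjusted p = 0.0978), with a looser filter on low counts (0.0784), or without replicate 1, 2, 3 or 4 (0.0653 to 0.122). Of all genes, 9.83% were lower and 9.15% higher, and with library size alone the called genes split into 1659 higher and 866 lower in place of 1264 and 1359. The mt-Co1 value was 0.06 ± 0.13, with 3 of 5 pairs in that direction, and turned to -0.01 without replicate 5. Without IL-2, 0 of the 7 mRNAs passed in edgeR (4 at an unadjusted p under 0.05, 0 in DESeq2), 0.318% of all genes were lower and 1.36% higher, and the values of the mRNAs lay between -0.35 and -0.18. In a fit of only the 10 libraries compared, mt-Nd1 (-0.29), mt-Nd2 (-0.28), mt-Nd4 (-0.26) and mt-Cytb (-0.35) passed. The summed mRNAs changed by -0.05 ± 0.13 with IL-2 and -0.23 ± 0.13 without, and neither passed.

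With IL-2, some of the mRNAs were higher than without, and among those of the heavy strand mt-Nd1 and mt-Nd2, which lie nearest to the rRNAs, had the largest values at each pH. At pH 7.4, mt-Nd1 was higher with IL-2 by 1.14 ± 0.14 (edgeR, adjusted p = 5.87e-09), mt-Nd2 by 0.87 ± 0.14 (adjusted p = 1.24e-06) and mt-Nd6 by 1.13 ± 0.26 (adjusted p = 0.00023), and none of them overlapped between the groups. In contrast, mt-Co1 was lower with IL-2 (-0.29 ± 0.13, edgeR, adjusted p = 0.0402) in overlapping groups, a call that did not hold without the replicate block (adjusted p = 0.0918), with a looser filter (0.0686) or without replicate 4 (-0.19) or 5 (-0.28). Of all genes, 39.3% were higher and 41.1% lower. At pH 7, mt-Nd1 (1.22 ± 0.14), mt-Nd2 (0.98 ± 0.14) and mt-Cytb (0.34 ± 0.12, edgeR, adjusted p = 0.00821) were higher with IL-2, with 37.6% of all genes higher and 39.5% lower, while mt-Co1 was at -0.05 ± 0.13 with overlapping groups (0.03 without replicate 3). The call for mt-Cytb did not hold without replicate 1 (0.22) or 2 (0.27), or with library size alone (0.22). At pH 6.6, where 13.2% of all genes were higher and 10.6% lower with IL-2, 4 of the 7 mRNAs were higher. They were mt-Nd1 (0.71 ± 0.14, edgeR, adjusted p = 0.000252), mt-Nd2 (0.58 ± 0.14, adjusted p = 0.00239), mt-Cytb (0.52 ± 0.12, adjusted p = 0.00118) and mt-Nd5 (0.41 ± 0.16, adjusted p = 0.0495), and in none did the groups overlap. The call for mt-Nd5 was at the threshold and did not hold without replicate 1, 3, 4 or 5, without the block or with a looser filter. For all genes at pH 6.6, library size alone gave 2254 higher and 769 lower in place of 1819 and 1459. The summed mRNAs did not pass at any pH in the fit over all libraries (0.05, 0.22 and 0.16 at pH 7.4, 7 and 6.6). Without mt-Co1, a sum chosen after seeing the data, the values were 0.39 ± 0.13, 0.53 ± 0.13 and 0.50 ± 0.13 (edgeR, adjusted p = 0.0066, 0.000402 and 0.00419). Since the choice came from the same libraries, these p-values are no separate support for higher levels with IL-2. The comparisons of IL-2 share libraries with those between pH values, so their values are side by side and not independent.

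The interaction term asks whether the effect of pH 6.6 differed between cultures with and without IL-2. It passed for 4 of the 7 mRNAs, 2 with a positive and 2 with a negative term. Of all genes, 34.3% had a positive and 32.8% a negative term, so this count does not set the mRNAs apart from other genes. With library size alone, the terms of all genes split into 5945 positive and 3518 negative in place of 4735 and 4526. For mt-Nd5 and mt-Nd4, the fall at low pH was smaller with IL-2, with a difference of 0.67 ± 0.22 (edgeR, adjusted p = 0.00765) and 0.52 ± 0.16 (adjusted p = 0.00613). For mt-Nd6 the fall was larger with IL-2, with a difference of -1.18 ± 0.39 (edgeR, adjusted p = 0.00893). For these 3 the sign was the same in 5 of 5 replicates, but none of them passed without replicate 4 (0.47, 0.34 and -0.74), and mt-Nd6 did not pass without the block (adjusted p = 0.0574). Beyond the 4, mt-Co1 and mt-Cytb passed without replicate 1 (0.53 and 0.47) or 2 (0.50 and 0.47) and with library size alone, and mt-Nd2 without replicate 4 (-0.49). The term for mt-Nd1 was -0.43 ± 0.20 (edgeR, adjusted p = 0.0493, 4 of 5 replicates) and did not pass under 7 of the other settings, nor without replicate 1, 2 or 5. The sum of the mRNAs had a term of 0.11 ± 0.18, with a 95% interval of -0.24 to 0.46.

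Of the 7 mRNAs, 1 passed in the cultures at pH 7.4 with IL-2 when set against the cells at 0 h; the pH 7 cultures were not compared with 0 h. It was mt-Co1, at -0.43 ± 0.13 (edgeR, adjusted p = 0.00516, 5 of 5 pairs, overlapping groups), among 29% of all genes higher and 30.9% lower, and it did not pass without replicate 3 (-0.30). At pH 7.4 without IL-2, mt-Nd1 (-1.12 ± 0.14), mt-Nd2 (-0.99 ± 0.14) and mt-Nd6 (-0.85 ± 0.26) were below 0 h and mt-Co1 was at -0.14 (adjusted p = 0.336), with 36.9% of all genes higher and 38.3% lower. At pH 6.6, all 7 mRNAs were below 0 h both with IL-2 (30.5% of genes higher, 38.0% lower) and without (34.8% higher, 40.3% lower). Their changes ranged from -2.35 for mt-Nd1 to -0.48 for mt-Co1 with IL-2, and from -3.06 to -0.52, for the same genes, without it. At 0 h, the mt-Nd1 values were 2988, 2834, 3837, 3164 and 2235 CPM, all above the highest library at pH 6.6 in either condition.

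These unequal changes altered the makeup of the mitochondrial mRNA pool. The mt-Co1 share of the pool was 44.1% ± 1.7 (SD, n = 5) in pH 7.4 cultures and 71.2% ± 3.4 in pH 6.6 cultures with IL-2, against 55.7% ± 2.4 and 77.4% ± 1.7 without. The mt-Nd1 share was 17.9% ± 0.88 and 5.90% ± 0.88 with IL-2 and 8.39% ± 0.83 and 3.997% ± 0.50 without. As log2 ratios within each library, which do not depend on scaling between libraries, mt-Co1 (with the near-empty mt-Co2 and mt-Co3) over the heavy-strand complex I mRNAs, both per length, was -0.46, -0.37, -0.14, -0.33 and -0.21 with IL-2 at pH 7.4, against 1.33, 1.72, 1.82, 1.33 and 1.32 at pH 6.6. The groups lay far apart, with a difference of 1.81 (exact two-sided permutation test of 5 against 5 libraries, p = 0.00794, the smallest it allows, adjusted p = 0.0171 over 28 tests). Without IL-2, the ratio was 0.60 ± 0.18 at pH 7.4 and 1.99 ± 0.15 at pH 6.6, a difference of 1.40 with the same exact p. It was 0.90 lower with IL-2 than without at pH 7.4 (-0.30 ± 0.13 against 0.60 ± 0.18), and the difference between the means was -0.79 at pH 7 and -0.49 at pH 6.6, each with the same exact permutation p and 5 of 5 pairs. Without scaling by length, the last did not pass (-0.45, exact permutation, adjusted p = 0.0606). Between pH 7 and pH 7.4 the differences were 0.20 with IL-2 (exact permutation, adjusted p = 0.0635) and 0.09 without (exact permutation, adjusted p = 0.570).

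**Figure D4:**
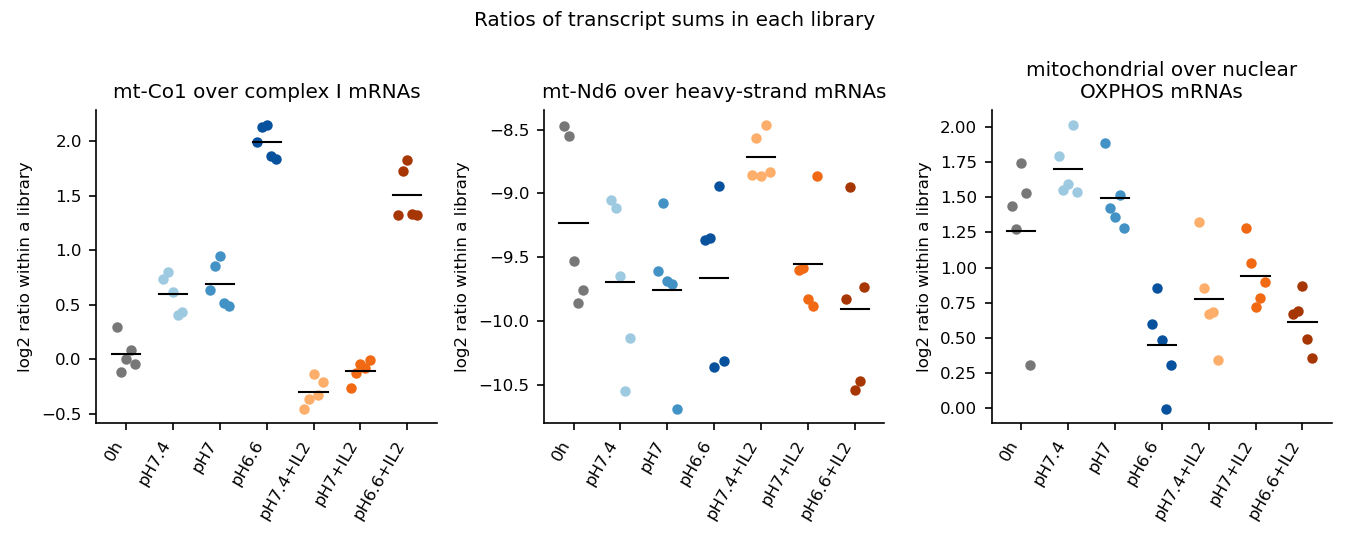
Log2 ratios within each library for 7 groups, with points for the 5 libraries and bars for means: mt-Co1 over heavy-strand complex I mRNAs (per length, left), mt-Nd6 over the heavy-strand mRNAs (per length, middle) and the mitochondrial over the nuclear mRNAs of complexes I, III, IV and V (right). The left ratio is between 1.32 and 2.15 in the libraries at pH 6.6 and below 0.95 in all others.

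The only light-strand mRNA, mt-Nd6, was set against the summed heavy-strand mRNAs, of which mt-Co1 was the largest. The log2 ratio of mt-Nd6 to the heavy-strand mRNAs was -8.72 ± 0.19 at pH 7.4, -9.55 ± 0.41 at pH 7 and -9.90 ± 0.65 at pH 6.6 with IL-2. Both acidic groups lay below pH 7.4, though at each of the acidic pH values 1 library came close to it, with differences of -1.19 at pH 6.6 and -0.83 at pH 7 (exact permutation, p = 0.00794 each, adjusted p = 0.0171). At pH 7.4 the ratio was 0.98 higher with IL-2 than without (-9.70 ± 0.65), with the same exact permutation p. At pH 6.6 with IL-2, the fitted change of mt-Nd6 (-2.05) was not below those of the heavy-strand mt-Nd1 (-2.38) and mt-Nd2 (-2.20), and mt-Co1, at -0.06, was the heavy-strand mRNA farthest from it. Without IL-2, the differences between pH 6.6 or pH 7 and pH 7.4 were 0.03 and -0.06 (exact permutation, adjusted p = 0.937 and 0.881). The mt-Nd6 and mt-Nd5 genes overlap by 14 bases on opposite strands, and the strand setting used in counting is not given in the sources used here.

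Of the 22 tRNAs, 11 received any count, for a total of 7426, and 5 passed the filter on low counts. The most counted were mt-Tw (4315 counts) and mt-Tt (2173 counts), the tRNAs for tryptophan and threonine. Mature tRNAs are too short and too structured to be well captured by these libraries, and both genes abut an mRNA. The gene mt-Tw overlaps the end of mt-Nd2 by 2 bases on the same strand, and mt-Tt starts at the base after mt-Cytb, and whether reads on them came from uncut or extended mRNAs was not tested. Their sequences, whole and on the plus strand at chrM:4950-5016 and chrM:15289-15355 in GRCm38, are given because these tRNAs held most of the tRNA counts.
mt-Tw: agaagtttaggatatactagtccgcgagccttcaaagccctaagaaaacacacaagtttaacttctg
mt-Tt: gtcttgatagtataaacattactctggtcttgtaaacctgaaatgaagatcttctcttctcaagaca

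With IL-2, 5 of the 5 tested tRNAs were lower at pH 6.6 than in the pH 7.4 cultures, against the 40.9% of all genes noted above. The libraries held 11.03, 9.10, 7.22, 7.24 and 7.27 CPM of mt-Tw at pH 7.4 and 2.25, 1.799, 2.27, 1.52 and 1.25 CPM at pH 6.6. The groups did not overlap, and the change was -2.19 ± 0.20 (edgeR, adjusted p = 1.67e-11), beside the -2.20 of the adjoining mt-Nd2. For mt-Tt, the change was -2.51 ± 0.26 (edgeR, adjusted p = 2.19e-10), beside -1.76 for the adjoining mt-Cytb. The others were mt-Tp, the light-strand tRNA for proline (-3.64 ± 0.61), mt-Tq, the light-strand tRNA for glutamine (-2.71 ± 0.60), and mt-Ti, the heavy-strand tRNA for isoleucine (-1.47 ± 0.65, edgeR, adjusted p = 0.0391), each resting on 0 to 38 counts per library. The median counts of mt-Tp, mt-Tq and mt-Ti over the 35 libraries were 4, 3 and 5, below the filter minimum of 10. They passed the filter only through libraries where they were high, so the counts of called tRNAs are partly set by it. The call for mt-Ti did not hold without replicate 1 (-1.06), 2 (-1.46) or 5 (-1.43), with a looser filter or in DESeq2 (-1.43). Without IL-2, mt-Tt (-1.81 ± 0.29) and mt-Tw (-1.54 ± 0.21) were lower and the other 3 did not pass.

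At pH 7 with IL-2, mt-Tq (-1.78 ± 0.51, edgeR, adjusted p = 0.0127) and mt-Tp (-1.75 ± 0.46, adjusted p = 0.00656) were lower than at pH 7.4. With mt-Nd6, whose call did not hold in several other fits, these were the 3 members that passed in edgeR. Of all genes, 9.83% were lower and 9.15% higher. The 3 are also the light-strand members that were tested, but both tRNAs passed the filter on low counts only through libraries where their counts were high. Lower values of these tRNAs elsewhere are thus partly set by the filter, and the 3 calls cannot show a difference between strands. The heavy-strand mt-Tw (-0.47 ± 0.18, edgeR, adjusted p = 0.0625) and mt-Tt (-0.53 ± 0.22, adjusted p = 0.0890) came near the threshold. In DESeq2 mt-Tw also passed (adjusted p = 0.0486), and in a fit of only the groups compared mt-Tw, mt-Tt and mt-Cytb did (-0.46, -0.52 and -0.22). Whether the strands differed was not tested on these members. The call for mt-Tq did not hold without replicate 2 (-1.63), nor that for mt-Tp without replicate 3 (-1.40). Summed over the 8 light-strand tRNA genes, the counts with IL-2 were 55, 59, 45, 32 and 31 at pH 7.4, then 23, 21, 6, 10 and 20 at pH 7 and 4, 4, 7, 3 and 8 at pH 6.6. As CPM, the sums were 1.77 ± 0.40, 0.621 ± 0.31 and 0.228 ± 0.088. Every library at pH 7 or pH 6.6 thus lay below every library at pH 7.4, on few reads. Without IL-2, the sums were 0.412 ± 0.32, 0.418 ± 0.20 and 0.255 ± 0.13 CPM at pH 7.4, 7 and 6.6, and at 0 h 1.301 ± 0.66 CPM. With IL-2 at pH 7.4, mt-Tq (2.69 ± 0.58), mt-Tp (2.39 ± 0.49), mt-Tt (1.32 ± 0.23) and mt-Tw (0.83 ± 0.18) were higher than without, and the interaction term of mt-Tp was -3.05 ± 1.02 (edgeR, adjusted p = 0.00951), which did not pass without replicate 1 (-2.30). At pH 7, mt-Tt (1.10 ± 0.24) and mt-Tw (0.55 ± 0.19) were higher with IL-2, the latter not without replicate 1 (0.41) or 2 (0.42). Against 0 h, 4 of the 5 were lower at pH 7.4 without IL-2 (38.3% of all genes) and 5 of 5 at pH 6.6 with IL-2 (38.0%) and without (40.3%), and 0 of 5 passed in edgeR at pH 7.4 with IL-2 (0 at an unadjusted p under 0.05, 0 in DESeq2). At pH 7.4 without IL-2, mt-Tq did not pass without replicate 3 (-1.16) nor mt-Tw without replicate 1 (-0.46), and at pH 6.6 with IL-2 mt-Tq did not pass without replicate 2 (-1.76) or 3 (-1.47), nor mt-Ti without replicate 5 (-1.52).

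The rRNAs mt-Rnr1 and mt-Rnr2, the scaffolds of the mitochondrial ribosome, had only 2 to 40 counts per library together. Poly(A) selection is designed to remove rRNA, and whether this is why the counts were so low was not tested. Only mt-Rnr2 was tested. It changed by -0.71 ± 0.48 (edgeR, adjusted p = 0.174) at pH 6.6 with IL-2 and by 0.22 ± 0.43 (adjusted p = 0.674) without, and it was lower with than without IL-2 at pH 7 (-1.33 ± 0.48, adjusted p = 0.013) on 1 to 20 counts per library. The log2 ratio of rRNA to heavy-strand mRNA was 1.21 higher at pH 6.6 than in the pH 7.4 cultures with IL-2 (exact permutation, p = 0.00794, adjusted p = 0.0171), but without scaling by length it was 0.85 (adjusted p = 0.0855). At pH 7 the ratio was lower with IL-2 by 1.92 (-16.4 ± 0.58 against -14.5 ± 0.92, same exact permutation p).

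The nuclear partners of the mitochondrial mRNAs moved differently in the presence and absence of IL-2. The list held 73 nuclear subunits of complexes I, III, IV and V, all of them tested. At pH 6.6 against pH 7.4 with IL-2, 40.9% of all genes were lower and 35.4% higher. Of the 73 subunits, 56 were lower and 2 higher, with a median log2 change of -0.56 beside -0.07 over all genes. Examples were Atp5g1 (-1.84 ± 0.10), a membrane-ring subunit of the ATP synthase, Ndufa12 (-1.67 ± 0.12), an accessory subunit of complex I, and Uqcr11 (-1.63 ± 0.12), a small subunit of complex III, whereas Ndufa6 of complex I (0.93 ± 0.12) and Uqcrh of complex III (0.61 ± 0.13) were higher. Without IL-2, 40 of the 73 were higher and 2 lower, where 31.6% of all genes were higher and 35.4% lower. The median was 0.27 beside -0.03 over all genes. The highest included Atp5d (0.89 ± 0.11) and Cox7a2 (0.74 ± 0.14), subunits of the ATP synthase and of cytochrome c oxidase. With library size alone, the median of all genes in this comparison was -0.19, and that of the list was 0.12 with 22 subunits higher. The 2 lower ones were Ndufc2 (-0.22) and Ndufb8 (-0.19). Without IL-2 at low pH, the mitochondrial mRNAs were thus lower while most nuclear subunits were higher or did not pass.

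The interaction term was negative for 68 of the 73 subunits and positive for 1, with a median of -0.85 beside 0.04 over all genes. Of all genes, 32.8% had a negative and 34.3% a positive term. By complex, 31 of 36 subunits of complex I, 7 of 9 of complex III, 8 of 11 of complex IV and 10 of 17 of complex V were lower at pH 6.6 with IL-2. Of the 4 subunits of complex II, which has no mitochondrially encoded member, 3 were lower with IL-2 and 3 higher without. The shares of all genes were 40.9% lower with IL-2 and 31.6% higher without. At pH 7, 14 of the 73 were lower with IL-2 and 0 passed in edgeR without (0 at an unadjusted p under 0.05, 0 in DESeq2). Of all genes, 9.83% were lower there with IL-2, and 0.318% were lower and 1.36% higher without. With IL-2 against without, 68 were higher and 2 lower at pH 7.4, 65 and 2 at pH 7, and 2 and 0 at pH 6.6. In the same order, 39.3%, 37.6% and 13.2% of all genes were higher and 41.1%, 39.5% and 10.6% lower.

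**Figure D5:**
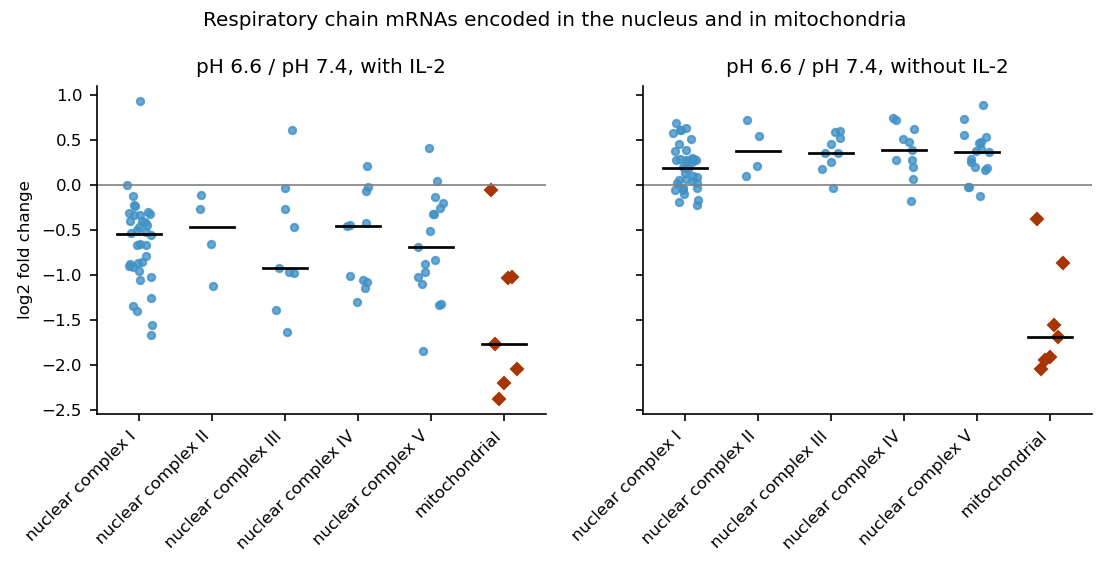
Log2 fold change from pH 7.4 to pH 6.6 with IL-2 and without IL-2, for nuclear subunits (dots) and the counted mitochondrial mRNAs (diamonds) by respiratory complex, with medians of the nuclear subunits as lines. The nuclear medians of complexes I to V are all below 0 with IL-2 (-0.93 to -0.46) and all above 0 without (0.19 to 0.39). The counted mitochondrial mRNAs are below 0 in both panels, but mt-Co1 with IL-2 (-0.06) did not pass the threshold and its sign turned under other scalings.

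The summed mitochondrial over the summed nuclear mRNAs of complexes I, III, IV and V, as a log2 ratio of counts, was 1.79, 1.55, 1.59, 2.02 and 1.54 at pH 7.4 without IL-2 and 0.60, 0.86, 0.48, -0.006 and 0.31 at pH 6.6 without IL-2. The groups did not overlap, and the difference was -1.25 (exact permutation, p = 0.00794, adjusted p = 0.0171). With IL-2 the groups overlapped, with 0.77 ± 0.36 at pH 7.4 and 0.62 ± 0.20 at pH 6.6, a difference of -0.16 (exact permutation, adjusted p = 0.590). With IL-2 against without, the difference was -0.92 at pH 7.4 and -0.55 at pH 7 (exact permutation, adjusted p = 0.0171 each), the latter not past the threshold when scaled by length (-0.43, adjusted p = 0.0741), and at pH 6.6 the difference was 0.17 (exact permutation, adjusted p = 0.478). From pH 7.4 to pH 6.6 with IL-2, the mt-Co1 share of the mitochondrial counts went from 44.1% to 71.2%. The mitochondrial sum without mt-Co1 changed by -1.73, beside a median of -0.56 for the nuclear subunits. The mitochondrial to nuclear ratio was not computed without mt-Co1.

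The genes of the mitochondrial RNA stability and decay list were lower at low pH with IL-2. The list comprised Lrpprc, Slirp, Rexo2, Supv3l1, Pnpt1 and Pde12. All 6 were lower at pH 6.6 with IL-2, with a median of -1.07, and all 6 were higher with IL-2 than without at pH 7.4 (median 1.29) and at pH 7 (1.12). The shares of all genes in these comparisons were 40.9% lower, 39.3% higher and 37.6% higher. Lrpprc, which stabilises mitochondrial mRNAs, was at 50 ± 8.6 CPM at pH 6.6 and 153 ± 16 CPM at pH 7.4 with IL-2 (SD, n = 5), a change of -1.63 ± 0.10 (edgeR, adjusted p = 5.44e-16). Its partner Slirp was at 17.2 ± 2.2 and 33.7 ± 5.3 CPM, a change of -0.97 ± 0.18 (edgeR, adjusted p = 1.28e-05). Of the decay enzymes, Rexo2, an oligoribonuclease, changed by -2.23 ± 0.10, Supv3l1, the helicase of the degradosome, by -1.15 ± 0.07, and Pnpt1, its nuclease, by -0.996 ± 0.098. Without IL-2, Lrpprc (-0.57 ± 0.10, edgeR, adjusted p = 6.29e-06) and Rexo2 (-1.22 ± 0.11) were lower, Pde12, which shortens poly(A) tails, was higher (0.56 ± 0.08), and Slirp was at 0.28 ± 0.18 (adjusted p = 0.179). The interaction term was negative for all 6, with a median of -1.10, and for 32.8% of all genes.

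The transcription machinery showed no common direction. Of its 10 genes, 5 were lower and 2 higher at pH 6.6 with IL-2 (median -0.20), where 40.9% of all genes were lower and 35.4% higher. Without IL-2, 4 were lower and 1 higher (median -0.16), where the shares of all genes were 35.4% and 31.6%, so the lower counts were near the background in both. Polrmt, the polymerase, changed by -0.60 ± 0.11 (edgeR, adjusted p = 1.4e-05) with IL-2 and was at -0.13 ± 0.11 (adjusted p = 0.320) without. Tfam, which packages mitochondrial DNA and opens its promoters, changed by -0.85 ± 0.09 (edgeR, adjusted p = 3.36e-10) with IL-2 and was at -0.04 ± 0.09 (adjusted p = 0.676) without, and Tfb2m, the promoter-melting factor, was higher in both (0.31 ± 0.11 each). Of 26 RNA processing and modification genes, 19 were lower and 4 higher with IL-2 (median -0.78), led by Fastkd2 (-2.10 ± 0.12) and Tbrg4 (-1.67 ± 0.12), which belong to a family of mitochondrial RNA-binding proteins. Without IL-2, 11 were lower and 5 higher (median -0.07).

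The counts of the remaining lists at pH 6.6 stand against the same shares of all genes, 40.9% lower and 35.4% higher with IL-2 and 35.4% lower and 31.6% higher without, and no list was tested against them. Of 14 genes for replication and upkeep of mitochondrial DNA, 8 were lower and 5 higher with IL-2 and 8 and 3 without, and Polg2, the accessory subunit of the DNA polymerase, was higher in both (2.09 ± 0.13 and 0.99 ± 0.12). Of 10 translation factors, 7 were lower and 1 higher with IL-2, and 6 and 2 without. Among the 7 tested biogenesis regulators, 3 were lower and 1 higher with IL-2 and 0 lower and 5 higher without, and Pprc1, a coactivator, changed by -1.93 ± 0.16 with IL-2 and 0.38 ± 0.17 without. Ppargc1a, the best-known coactivator of this family, did not pass the filter on low counts. Of the 7 tested mitophagy genes, 5 were lower and 2 higher with IL-2, among them Bnip3 (-2.19 ± 0.22) and Pink1, the kinase that marks damaged mitochondria (2.55 ± 0.09), and 1 was lower and 2 higher without.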

How the data were processed

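The authors deposited raw read counts per gene, 1 table for each of the 35 libraries, and no fold changes were used. RNA was poly(A)-selected with a stranded Illumina TruSeq mRNA kit. The submitters' processing notes name cutadapt 1.8, STAR 2.5.2b, HTSeq 0.6.1 and the build GRCm38. The read length, annotation release and strand setting of the counting are not given in the sources used here. Library sizes and tests excluded the table entries without a gene: multiply aligned reads (32.8% to 48.3% of reads listed), reads on no feature (2.58% to 11.1%) and ambiguous reads (0.871% to 0.997%). Multiply aligned reads are uncounted, which affects every gene with a near-identical copy.

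Members were the genes whose symbol starts with mt-. Members and gene lists were chosen with earlier results of these data known. Counts were filtered (filterByExpr, minimum count 10), scaled by TMM and fitted with edgeR 4.0.16 (quasi-likelihood; R 4.3.3, limma 3.58.1) over all 35 libraries with the replicate number as a block. 13819 genes were tested and p-values adjusted by Benjamini-Hochberg over all of them, at a threshold of 0.05. CPM are TMM-scaled counts for a library of 1e+06. All mRNAs, both rRNAs and the 5 tested tRNAs were named. From each list at most 4 genes per comparison were named, taken by size of change among called genes whose 5 of 5 pairs shared a sign and whose average log2 CPM reached 3. Polrmt, Tfam, Tfb2m, Lrpprc, Slirp and Ppargc1a were always named. A few further subunits were named after their values were seen. Ratios were taken within libraries and compared by exact two-sided permutation tests of 5 against 5 libraries, adjusted over 28 tests; rRNA counts had 0.5 added. Shared sequence was searched in GENCODE M21 transcripts as exact windows of 50 and 100 bases.

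The labels number the replicates 1 to 5 in each group. Deviations of same-numbered libraries correlated above 0.1 in 5 of 5 pairs from pH 7.4 to pH 6.6 in both conditions (0.198 to 0.416 with IL-2), and in 3 or 4 of 5 pairs for IL-2 at pH 7 and for 3 of the comparisons with 0 h. Within groups, the 70 pairs of libraries differed by more than sampling noise (chi-square per degree of freedom at least 6.66). On data simulated for pH 6.6 against pH 7.4 with IL-2 (13408 genes), the test called 65 of 67 genes changed by 2 on the log2 scale, 53 of 65 changed by 1 and 36 of 66 changed by 0.5, with 10 false calls among 164. The simulation changed only 198 of these genes and held no replicate effects. In the real comparison 10539 genes were called, so the simulation does not measure the test under such widespread change. Alternatives were other scalings, filters, DESeq2 1.42.0, only the groups compared, no replicate block, other length scalings and leaving out each replicate; the sum without mt-Co1 was chosen after seeing the data. Figures were drawn with matplotlib 3.10.9.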

Additional observations from a re-analysis of the deposited data

Results flagged for a closer look

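Of 84 groups of 5 libraries examined for a library that stood apart from the other 4, 8 held one. For independent groups, chance gives about 1 in 20, or 4.2. These groups shared libraries and the sum holds the single mRNAs, so 8 cannot be weighed against 4.2. At pH 7.4 with IL-2, replicate 1 stood above the rest for mt-Nd1 (4539 CPM against 2483 to 3043 CPM), for mt-Co1 (9961 against 6535 to 7285 CPM) and for the summed mRNAs (2.27% of counts against 1.36% to 1.59%). At pH 6.6 with IL-2, replicate 1 stood apart for mt-Nd2 (356 CPM against 277 to 286 CPM). At pH 7.4 without IL-2, replicate 4 was the highest for mt-Nd2 (1031 against 609 to 729.6 CPM) and for mt-Nd5 (2715 against 1763 to 1996 CPM). At pH 6.6 without IL-2, replicate 2 stood apart for mt-Nd5 (773 against 560 to 604 CPM). At 0 h, replicate 1 had a log2 ratio of rRNA to heavy-strand mRNA of -14.6 against -15.9 to -15.8 in the others.

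The effect of pH 6.6 differed between cultures with and without IL-2 by the interaction term of edgeR for 5 members, by -0.43 for mt-Nd1, 0.52 for mt-Nd4, 0.67 for mt-Nd5, -1.18 for mt-Nd6 and -3.05 for mt-Tp on the log2 scale. Over all 13819 genes tested, 34.3% had a positive and 32.8% a negative term, so the count of 5 does not set the members apart from other genes. The term of mt-Nd1 (adjusted p = 0.0493) did not pass under 7 other settings or without replicate 1, 2 or 5. Without replicate 4 the terms of mt-Nd4, mt-Nd5 and mt-Nd6 did not pass, and without replicate 1 that of mt-Tp did not (-2.30). What underlies these differences was not tested.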

How the results depend on the processing

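Of 520 recomputed values of counts, sums and ratios, 400 stayed the same, and of 1235 for single members 1163 did. For sums, ratios and single members, this meant the same direction and side of the threshold. For counts of called mRNAs, it meant an equal or similar number without a turn of the main direction. The called mRNAs at pH 7 with IL-2 were 1 and became 0 with a looser filter, 2 with only the groups compared and 0 without the replicate block (0 to 1 leaving out a replicate). At pH 7 without IL-2 there were 0, and 4 with only the groups compared. The interaction gave 4, 2 without the block and 2 to 5 leaving out a replicate, and pH 7.4 with IL-2 against 0 h gave 1, 2 with library size alone and 0 to 3.

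The summed mRNA changed at pH 7 without IL-2 by -0.22 with only the groups compared, which passed. For IL-2 at pH 7.4 the sum was 0.05 in the main fit and -0.11 with library size alone, a turn of sign. It ranged from -0.125 to 0.161 leaving out a replicate. With only the groups compared, the sum passed for IL-2 at pH 7 (0.23, edgeR, adjusted p = 0.0155) and at pH 6.6 (0.19, adjusted p = 0.0336). The sum without mt-Co1 was 0.39, 0.53 and 0.50 for IL-2 at pH 7.4, 7 and 6.6, and was not refitted leaving out a replicate. The interaction of the sum ranged from -0.054 to 0.33. Against 0 h, pH 7.4 with IL-2 was -0.31 with library size alone (-0.34 to -0.089), and pH 7.4 without IL-2 (-0.29) did not pass with RLE (-0.27), library size alone (-0.20), a looser (-0.28) or stricter filter (-0.26), only the groups compared (-0.29) or no block (-0.30), and ranged from -0.37 to -0.14.

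The replicates pair the libraries, but an exact sign-flip test over 5 pairs, the replicate block of the ratios, cannot go below 0.0625, and 4 against 4 libraries also loses the threshold by construction. So the called differences had exact p = 0.0625 at unchanged values: -1.19, -0.83 and 0.98 for light to heavy strand, 1.21 and -1.92 for rRNA, 1.81, 1.40, -0.90, -0.79 and -0.49 for mt-Co1 to complex I, and -1.25, -0.92 and -0.55 for mitochondrial to nuclear mRNA. Under other length scaling or counting, the light to heavy ratio at pH 6.6 without IL-2 was -0.047, a turn of sign, rRNA at pH 6.6 with IL-2 0.85, mt-Co1 to complex I for IL-2 at pH 6.6 -0.45 and mitochondrial to nuclear for IL-2 at pH 7 -0.43. Leaving out a replicate, light to heavy ranged from -1.39 to -0.98 (pH 6.6) and -1.04 to -0.69 (pH 7) with IL-2, -0.36 to 0.22 and -0.28 to 0.070 without, and 0.71 to 1.18, -0.20 to 0.38 and -0.44 to 0.084 for IL-2 at pH 7.4, 7 and 6.6. rRNA ranged from 0.95 to 1.44 (pH 6.6 with IL-2), -0.086 to 0.58 (pH 7 without) and -1.99 to -1.80 (IL-2 at pH 7). mt-Co1 to complex I ranged from 1.73 to 1.87 with and 1.36 to 1.43 without IL-2, and -0.96 to -0.82, -0.87 to -0.74 and -0.53 to -0.44 for IL-2. Mitochondrial to nuclear ranged from -1.39 to -1.06 (pH 6.6 without IL-2), -1.04 to -0.82 and -0.59 to -0.51 (IL-2 at pH 7.4 and 7).

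For mt-Co1, whose values lay near 0, the sign turned at pH 6.6 with IL-2 under RLE (0.0042), scaling without mitochondrial genes (0.0085), library size alone (0.017), DESeq2 (0.0042), only the groups compared (0.0082) and without replicate 1 (range -0.166 to 0.125 leaving out a replicate), at pH 7 with IL-2 without replicate 5 (-0.011 to 0.105), for IL-2 at pH 7 without replicate 3 (-0.123 to 0.028) and at pH 6.6 without replicate 3 or 4 (-0.038 to 0.166). Library size alone moved the median of all genes from -0.03 to -0.19 at pH 6.6 without IL-2, from -0.04 to -0.20 and -0.16 for IL-2 at pH 7.4 and 7, and from 0.04 to 0.27 for the interaction. Over all genes, the 232 called at pH 7 without IL-2 became 942 with only the groups compared, 56 without the replicate block and 35 to 332 leaving out a replicate, the 2623 at pH 7 with IL-2 became 4388, 1660 and 1283 to 2425, and the 3278 for IL-2 at pH 6.6 became 5369, 2415 and 2119 to 2630. The causes were not tested.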
